A study of Pleuronichthys verticalis with 38 samples.

Results

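Liver gene expression of 12 hornyhead turbot injected with polychlorinated biphenyls (PCBs) was set against that of 7 uninjected seawater controls, 96 h after injection, with the 2 PCB doses averaged. These 19 fish were chosen by their titles (5 low PCB, 7 high PCB and 7 seawater control) from 38 fish in all, and 6 oil controls are given beside them to show the level after injection alone. The remaining fish were injected with polybrominated diphenyl ethers (PBDEs), 7 at 0.5 µg and 6 at 5 µg per g. They are not described here, but they entered the fit of all 38 arrays and the correlations between fish. Hornyhead turbot (Pleuronichthys verticalis) is a bottom-living flatfish used to monitor marine contamination, and each array held RNA from a piece of 1 liver. The injected mixture combined 13 congeners, numbered 180, 170, 153, 149, 138, 118, 105, 101, 99, 87, 66, 52 and 49. Fish of the low dose received 1 µg and those of the high dose 10 µg per g body mass, as a single injection into the body cavity in 2 mL of oil per kg; the kind of oil is named only for the oil controls, as peanut oil. Oil controls received the same volume of oil alone, so that PCB fish differed from seawater controls by oil and needle as well as by PCBs. The age of the fish was not given in the sources used here. The PCB fish comprised 5 females and 7 males (4 of the 5 low-dose fish were female), the seawater controls 2 females and 5 males, and the oil controls 1 female, 4 males and 1 immature fish. Seawater control 7 is labelled a vehicle control in 1 of its fields and a seawater control in its title and source name, and was kept under its title.

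PCBs are persistent industrial chlorinated compounds that dissolve in fat and accumulate in the liver, where much of their metabolism takes place. Planar congeners bind the aryl hydrocarbon receptor, a transcription factor that in fish and mammals induces cytochrome P450 1A and other detoxifying enzymes, whereas bulkier congeners act in mammals through the nuclear receptors CAR and PXR. The files pair each probe with a contig number and with no gene name or sequence, so neither these genes nor liver markers could be looked up, and probes are described by identifier.

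Levels are log2 spot signals relative to the 75th percentile of the same array, so a level of 0 is a signal at that percentile. Of 14757 probes, 10492 were well above background on at least 5 arrays, had no unreplaced outlier flag, and were tested. The 75th percentile of signal ranged from 43.6 to 194 intensity units in PCB fish and from 88.8 to 153 in seawater controls, with means of 113 ± 40.7 (SD, n = 12) and 112 ± 21.4 (SD, n = 7; exact two-sided permutation test of the means, p = 0.968, adjusted over 2 measures 0.968). Between 6113 and 9502 probes per array were well above background in PCB fish and between 7888 and 10355 in seawater controls (means 8612 ± 959 and 8761 ± 854, SD, n = 12 and 7; exact permutation p = 0.772, adjusted 0.968).

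Against seawater controls, 53 of 10492 probes had an adjusted p under 0.05 (limma), which is 0.505% of those tested. Of these, 35 were higher (0.334%) and 18 were lower (0.172%) in PCB fish. The 29 higher probes that were well above background in all 19 fish differed by 1.51-fold to 3.73-fold, with a median of 1.95-fold. The 16 such lower probes differed by 1.51-fold to 3.02-fold, with a median of 1.91-fold. The other 8 were dim in some fish, and their folds rest partly on signals near background. The largest fitted fold, 9.20, belonged to a probe well above background in 2 of 7 seawater controls, and the next, 5.33, to one well above it in 1 of 7. Of all called probes, 20 higher and 8 lower ones had a fitted difference of at least 1 log2 unit. In whole liver, fewer cells of a type and less RNA per cell cannot be told apart. The median difference over all 10492 probes was -0.00 log2 units, and 50% of the tested probes lay between -0.21 and 0.22. Before adjustment, p was under 0.05 for 1160 probes (11.1%), of which 596 were higher (5.68%) and 564 lower (5.38%). A difference of at least 1 log2 unit, whatever its p, was measured at 161 higher (1.53%) and 128 lower probes (1.22%). The unadjusted 95% interval reached a median of 0.55 log2 units (1.47-fold) to either side of the difference.

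**Figure D1:**
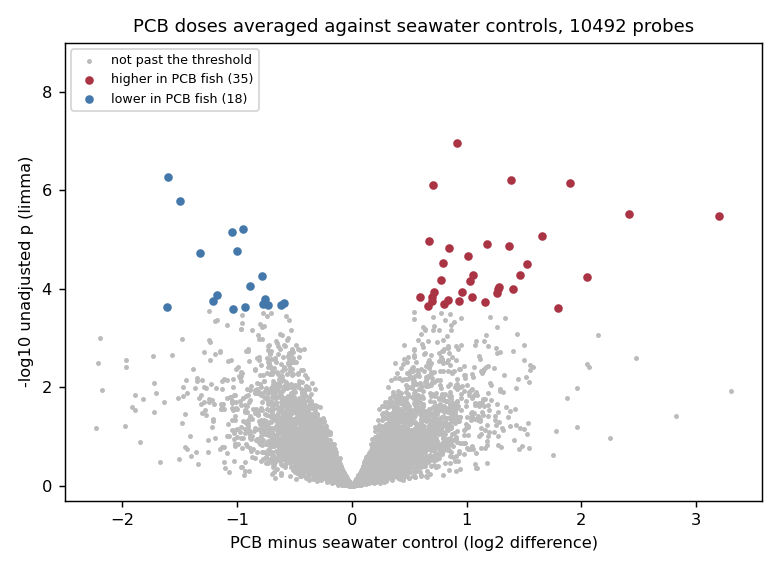
Each point is 1 of 10492 probes, with the log2 difference between PCB fish (both doses averaged, n = 12) and seawater controls (n = 7) on the horizontal axis and the negative log10 of the unadjusted limma p on the vertical axis. Coloured points are the 35 higher and 18 lower probes with an adjusted p under 0.05.

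The size of this set depended on single fish and on the processing. With seawater control 7 counted under its other label, as an oil control, 9 probes passed. The count was 20 when only the groups compared were fitted, 81 with slide as a random block and 112 with array weights. It was 33 without the filter on dim probes, where more probes were tested. Without 1 fish at a time, it ranged from 14 to 102. It was 28 without seawater control 22, 24 without 24, 95 without 46, 28 without 50, 14 without 6 and 18 without 7. It was 31 without low PCB 2, 102 without low PCB 33 (the male of that group), 34 without low PCB 39, 29 without high PCB 21, 33 without high PCB 25, 35 without high PCB 32 and 84 without high PCB 41. Leaving out any of the other 6 fish moved it by less than 1.5 times. Quantile normalization gave 34 higher and 31 lower probes, and slide as a fixed block 31 higher and 42 lower. With normexp background correction 3 probes passed, all higher, and in the 12 males (7 PCB, of which 1 low dose, and 5 seawater) 1 passed.

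**Figure D2:**
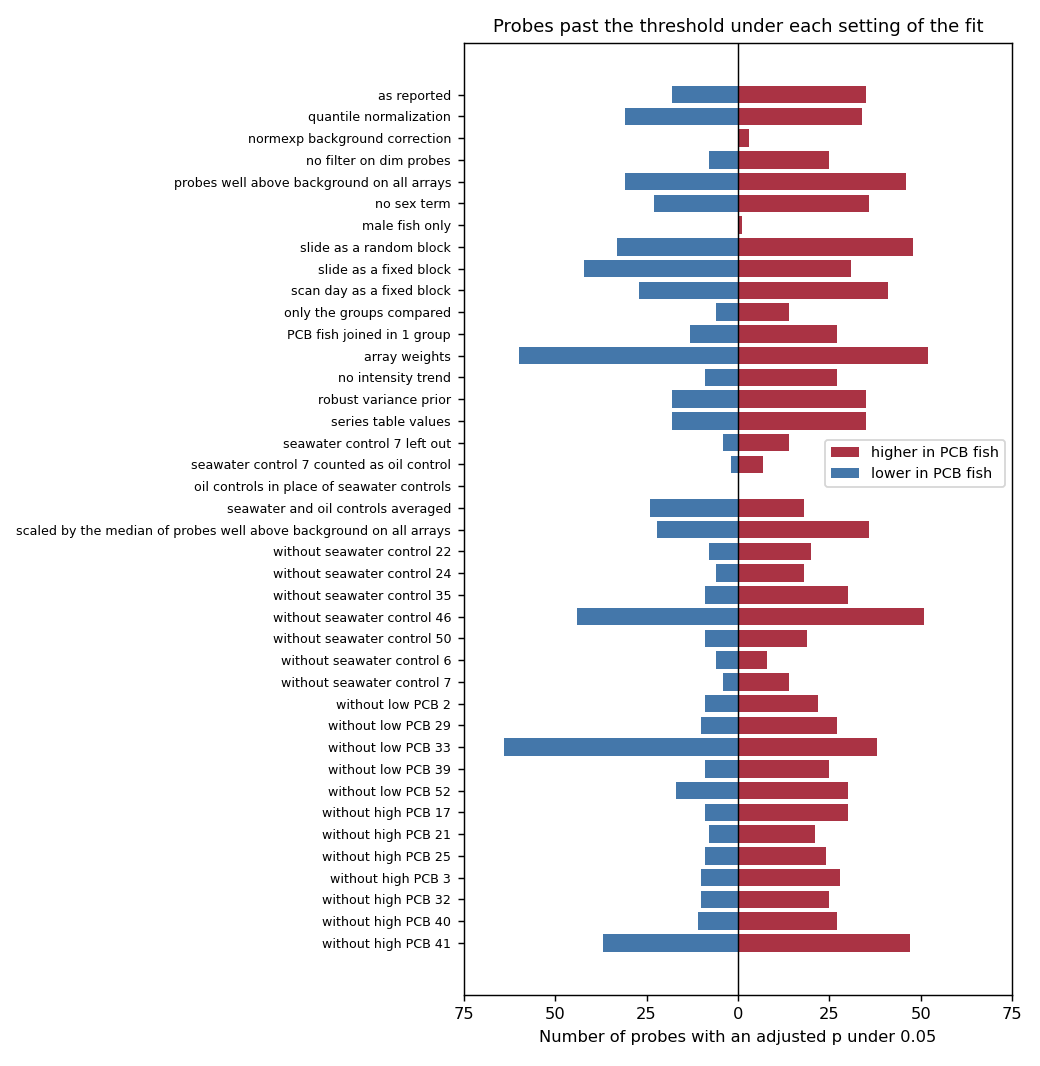
Bars give the number of probes past the adjusted threshold in the comparison of PCB fish with the controls under each setting of the fit, higher ones to the right and lower ones to the left. The top bar is the reported result of 35 and 18, and the lower 19 bars leave out 1 fish each.

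The higher probe with the smallest p was HT_SCCWRP_8317. Its level in the 7 seawater controls ran from 2.69 through a median of 2.83 to 3.06. The low PCB fish 2, 29, 33, 39 and 52 had 3.85, 3.70, 4.12, 4.04 and 3.44, and the 7 high PCB fish ran from 3.24 through 3.70 to 4.13. All 12 PCB fish therefore lay above all 7 seawater controls. The fitted difference was 0.92 log2 units (SE 0.14, 95% interval 0.64 to 1.20, limma adjusted p = 0.00115), or 1.89-fold, with means of 3.78 ± 0.27 (SD, n = 12) and 2.87 ± 0.13 (SD, n = 7). The 6 oil controls, at 3.42 to 3.65 with a median of 3.49, also lay above every seawater control and within the range of the PCB fish. Oil controls exceeded seawater controls by 0.67 (SE 0.16, limma adjusted p = 0.207, unadjusted p = 0.000217). PCB fish exceeded oil controls by 0.25 (SE 0.15, limma adjusted p = 0.632, unadjusted p = 0.111), and neither difference passed.

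HT_SCCWRP_15090 was the second of the higher probes. Seawater controls ran from -1.46 through -1.01 to -0.01, and all but number 46, the highest, were below -0.7. Low PCB fish 2, 29, 33, 39 and 52 had 0.67, 0.81, 0.40, 0.62 and 0.01, and high PCB fish ran from -0.89 through 0.53 to 1.15. The groups overlapped: high PCB 3 (-0.89) lay among the seawater controls, and high PCB 21 (-0.13) lay below seawater control 46. The difference was 1.39 log2 units (SE 0.23, 95% interval 0.93 to 1.85, limma adjusted p = 0.00166), or 2.62-fold, from means of 0.42 ± 0.56 (SD, n = 12) and -0.93 ± 0.46 (SD, n = 7). Oil controls ran from -0.53 through -0.29 to 0.58 and overlapped both. Their difference from seawater controls was 0.77 (SE 0.27, limma adjusted p = 0.451, unadjusted p = 0.00730). That of PCB fish from oil controls was 0.62 (SE 0.25, limma adjusted p = 0.437, unadjusted p = 0.0179).

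Among lower probes, HT_SCCWRP_19679 had the smallest p. Its level in seawater controls ran from 1.00 through 1.40 to 1.81. Low PCB fish 2, 29, 33, 39 and 52 had -1.16, -0.60, 0.36, 0.44 and 0.00, and high PCB fish ran from -0.84 through -0.24 to 0.72. All 12 PCB fish lay below all 7 seawater controls. The fitted difference was -1.60 log2 units (SE 0.26, 95% interval -2.12 to -1.07, limma adjusted p = 0.00166), a 3.02-fold lower signal, from means of -0.16 ± 0.59 (SD, n = 12) and 1.42 ± 0.31 (SD, n = 7). Oil controls, at 0.56 to 1.25 with a median of 0.95, overlapped seawater controls and, at their lowest fish, the highest PCB fish. Against seawater controls they differed by -0.52 (SE 0.31, limma adjusted p = 0.746, unadjusted p = 0.0990). PCB fish differed from oil controls by -1.08 (SE 0.29, limma adjusted p = 0.229, unadjusted p = 0.000618), which did not pass.

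HT_SCCWRP_23972 followed. Seawater controls ran from 0.77 through 1.52 to 1.84. Low PCB fish 2, 29, 33, 39 and 52 had -0.82, -0.66, 0.10, 0.27 and 0.45, and high PCB fish ran from -0.60 through 0.32 to 0.87. The ranges met only where high PCB 3 (0.87) exceeded seawater control 50 (0.77). The difference was -1.49 log2 units (SE 0.26, 95% interval -2.02 to -0.97, limma adjusted p = 0.00291), a 2.82-fold lower signal, from means of 0.02 ± 0.55 (SD, n = 12) and 1.44 ± 0.38 (SD, n = 7). Oil controls ran from 0.23 through 1.15 to 1.61, with number 47 the lowest, and overlapped both. They differed from seawater controls by -0.41 (SE 0.31, limma adjusted p = 0.797, unadjusted p = 0.187). PCB fish differed from oil controls by -1.08 (SE 0.28, limma adjusted p = 0.229, unadjusted p = 0.000569).

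**Figure D3:**
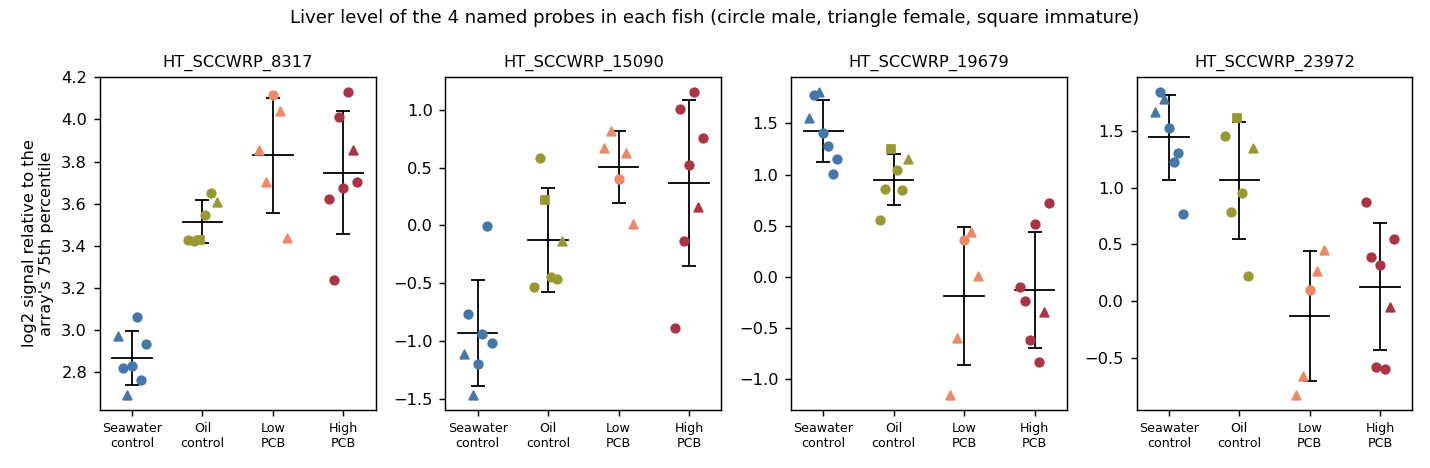
Each point is 1 fish, with the log2 signal relative to the 75th percentile of its array on the vertical axis, for seawater controls (n = 7), oil controls (n = 6), low PCB (n = 5) and high PCB (n = 7). Horizontal lines are group means and bars 1 SD. PCB fish do not overlap seawater controls for HT_SCCWRP_8317 and HT_SCCWRP_19679, and the mean of the oil controls lies between the seawater mean and both PCB means for all 4 probes, with single oil fish outside for HT_SCCWRP_15090 and HT_SCCWRP_23972. The probes were picked for their difference between PCB and seawater fish, so an oil mean between the others is partly built in.

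All 4 named probes were well above background in each of the 19 fish and in all 6 oil controls. Their calls against seawater controls held when any 1 of the 19 fish was left out (limma adjusted p of at most 0.0153 over the 4 probes). All lost the call in males alone, where 1 fish stood for the low dose and the log2 differences were 1.04, 1.19, -1.19 and -1.20 in the order given (limma adjusted p = 0.163, 0.398, 0.411 and 0.411). HT_SCCWRP_15090, HT_SCCWRP_19679 and HT_SCCWRP_23972 also lost it with normexp, at 0.71, -0.95 and -0.89 (adjusted p = 0.0723, 0.0753 and 0.108), a setting that moved the median of all probes to -0.13.

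The arrays were spread over 8 slides, of which 6 held both PCB and seawater fish. The reported fit had no term for slide or scan day. Over all 38 arrays, slide made a difference at 1039 and scan day at 818 of 10492 probes (limma F-test, adjusted p under 0.05). Each was a joint test of all slides or days, and slide 8 held a single array. These counts can therefore not be set against the 53 of the PCB and seawater comparison. Of the 53 called probes, 36 passed with slide as a fixed block and 51 with scan day as a fixed block. With slide as a fixed block, the differences were 0.89, 1.36, -1.42 and -1.34 for HT_SCCWRP_8317, HT_SCCWRP_15090, HT_SCCWRP_19679 and HT_SCCWRP_23972 (limma adjusted p = 0.00661, 0.00661, 0.0129 and 0.0232). Within single slides the differences of HT_SCCWRP_8317 ranged from 0.53 to 1.07 and those of HT_SCCWRP_15090 from 0.66 to 1.92. For HT_SCCWRP_19679 they ranged from -2.41 to -0.28 and for HT_SCCWRP_23972 from -1.81 to -0.76. The signs were the same on all 6 slides for each probe. Within the 3 scan days the ranges were 0.77 to 1.05, 1.08 to 1.50, -2.48 to -1.37 and -2.02 to -1.24 in the same order. Each of the 6 slides gave 1 or 2 PCB fish and 1 or 2 seawater controls. Scan days 1 and 3 each gave 3 PCB fish and 1 seawater control, and scan day 2 gave 6 and 5. For HT_SCCWRP_8317 and HT_SCCWRP_19679 the PCB and seawater fish did not overlap, so equal signs were fixed in advance. HT_SCCWRP_15090 and HT_SCCWRP_23972 were picked for their p in the same arrays, so that equal signs are partly built in.

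**Figure D4:**
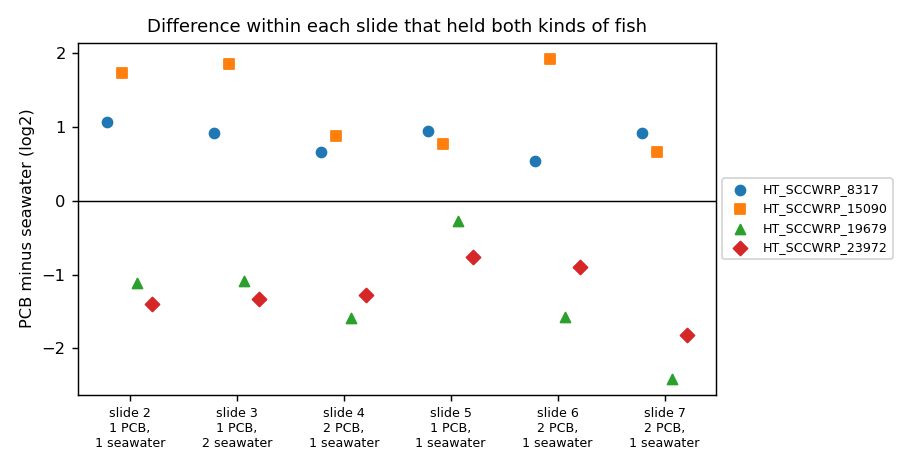
Each point is the mean log2 level of the PCB fish minus that of the seawater controls on 1 slide, for the 4 named probes, on the 6 slides that held both. Points of the 2 higher probes lie above 0 and those of the 2 lower probes below 0 on each slide, the smallest size being -0.28 for HT_SCCWRP_19679 on slide 5. PCB and seawater fish do not overlap for HT_SCCWRP_8317 and HT_SCCWRP_19679, so the side of their points was fixed in advance. Each mean rests on 1 or 2 fish.

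Sex was unequal between the groups, and the difference was therefore also taken within each sex. In females (5 PCB, 2 seawater) the differences of means were 0.94, 1.74, -2.01 and -1.88 for HT_SCCWRP_8317, HT_SCCWRP_15090, HT_SCCWRP_19679 and HT_SCCWRP_23972, and in males (7 PCB, 5 seawater) 0.90, 1.19, -1.35 and -1.18. The female minus male difference had limma adjusted p = 1.00 for each of the 4. Over all probes 0 passed this test (0%, limma) and 2 passed it with normexp. Without adjustment 339 probes (3.23%) had a p under 0.05, 256 with a larger value in females (2.44%) and 83 in males (0.791%). Of the PCB fish, 4 of 5 females had the low dose and 6 of 7 males the high dose, and this test joined the doses. Differences by sex can therefore not be told apart here from differences by dose.

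The 4 named probes were also followed over all 38 fish, the PBDE fish included, after the effects of group and sex were removed. HT_SCCWRP_19679 and HT_SCCWRP_23972 varied together over the 38 fish, with Pearson's r = 0.777 and Spearman's rho = 0.741 (permutation p = 1e-05 each, the smallest that 100000 resamples can give, adjusted over 6 pairs 6e-05). Without the 2 fish farthest from the median of HT_SCCWRP_19679, r was 0.728, and with slide means removed it was 0.788 (n = 37). Within the 3 scan days r was 0.824 (n = 10), 0.779 (n = 21) and 0.818 (n = 7). It was 0.813 in the 12 PCB fish and 0.727 in the 7 seawater controls, but -0.23 in the 6 oil controls. For the other 5 pairs r lay between -0.269 and -0.0241 (permutation, adjusted p of at least 0.310). Whether the 2 probes report the same transcript is not given in the files. Among all 53 called probes, 1 of 1378 pairs had a residual r above 0.8 (0.0726%, against 0.0138% of all pairs of tested probes), and the median r was 0.02. That pair was HT_SCCWRP_57380 and HT_SCCWRP_70897 (r = 0.823), well above background in 2 and 4 of the 7 seawater controls. The share among called probes thus rests on a single pair that was dim in some fish.

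The remaining 49 called probes are described together. Of the 53, 45 were well above background in all 19 fish. The 2 called probes not well above background in any seawater control had 6 of 12 and 9 of 12 PCB fish well above it, and 2 of 6 and 6 of 6 oil controls. Their fitted folds were 2.65 and 2.40 (limma adjusted p = 0.0350 and 0.0378), from seawater signals not well above background. With those signals raised to the lowest level well above background on each array, the group means differed by 1.22-fold and 1.39-fold. The PCB signals, some of them dim, were left as measured, and these means were neither averaged by dose nor adjusted for sex. They therefore set no lower bound. These smaller folds were not tested. No tested probe was well above background in all 12 PCB fish and in no seawater control, or the reverse.

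In 10 probes PCB fish and seawater controls did not overlap: in 6 (0.0572% of those tested) all 12 PCB fish lay above all 7 controls and in 4 (0.0381%) below. Of these 10, 9 were among the 53. When the 6 oil controls were counted with the seawater controls, no probe separated the 12 PCB fish from all 13 controls (0 of 10492 above and 0 below). Oil controls alone lay above all seawater controls in 13 probes (0.124%) and below in 2 (0.0191%), and PCB fish lay above all oil controls in 1 (0.00953%) and below in 3 (0.0286%). Smaller groups separate more often by chance, so these counts cannot be set against the 10 of the larger groups.

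Injection was measured by the oil controls. No probe passed between oil and seawater controls (0 of 10492, 0%, lowest adjusted p by limma = 0.207) or between PCB fish and oil controls (0 of 10492, 0%, lowest adjusted p = 0.229). Before adjustment, p was under 0.05 for 759 probes (7.23%) between oil and seawater controls, 472 higher (4.5%) and 287 lower (2.74%) after oil. It was under 0.05 for 1002 (9.55%) between PCB fish and oil controls, 417 higher (3.97%) and 585 lower (5.58%) in PCB fish. For the 35 higher probes the median difference was 1.04 for PCB against seawater, 0.59 for oil against seawater and 0.45 for PCB against oil, the last from -0.42 to 2.35. For the 18 lower probes the medians were -0.97, -0.30 and -0.61, the last from -1.20 to -0.02. Over all tested probes these medians were -0.00, 0.01 and -0.01. The 3 comparisons share fish and the probes were chosen in the first, so the others are given as levels beside it and not as separate tests.

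**Figure D5:**
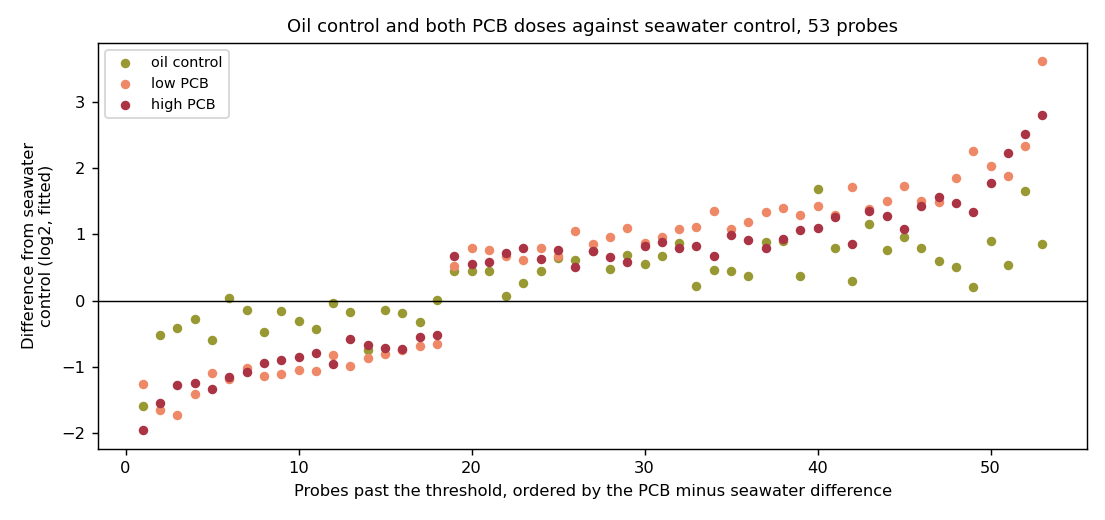
For each of the 53 probes past the threshold, ordered by the PCB minus seawater difference, points give the fitted log2 difference from seawater controls of oil controls, low PCB and high PCB fish. Both PCB doses lie on the same side by selection, and oil controls range from -1.59 to 0.03 for the 18 lower and from 0.06 to 1.68 for the 35 higher probes. The oil points share the seawater controls used in that selection, so their side is partly built in.

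Each fish was also placed by whether its level at a called probe was nearer to the mean of the PCB groups or to that of the seawater controls. The 12 PCB fish were nearer to the PCB mean at 28 to 52 of the 53 probes and the 7 seawater controls at 0 to 23, which the choice of probes largely fixes. The 6 oil controls were nearer to the PCB mean at 19 to 41 of 53, with number 15 at 41 and number 45 at 19. At the 35 higher probes this held for 12 to 33 per oil fish and at the 18 lower ones for 3 to 8. The same seawater controls entered the choice of probes, so the placement of the oil controls is partly built in as well. The lowest PCB fish, high PCB 41 (28 of 53), and the highest seawater control, number 46 (23 of 53), were hybridised on the same slide. The part of that slide in their placement was not tested.

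The 2 doses, which differed 10-fold, were compared with each other. None of the 10492 passed (0%, limma, adjusted p of at least 0.999). Before adjustment, 319 (3.04%) had a p under 0.05, 97 higher (0.925%) and 222 lower (2.12%) after the high dose. Among the 53 called probes this held for 3 (5.66%), all lower after the high dose. The median high minus low difference was -0.23 log2 units for the 35 higher probes and 0.14 for the 18 lower ones, against -0.05 over all tested probes. The called probes were chosen on the mean of both doses, and the low dose had fewer fish and the larger standard error. That choice favours probes with the larger difference at the low dose. The signs of both medians, and those of the 3 probes, are therefore partly built in. For HT_SCCWRP_8317 it was -0.08 (95% interval -0.46 to 0.29), for HT_SCCWRP_15090 -0.23 (-0.85 to 0.39), for HT_SCCWRP_19679 0.09 (-0.61 to 0.80) and for HT_SCCWRP_23972 0.45 (-0.26 to 1.15), with a limma adjusted p of 0.999 each. Against seawater controls on its own, the low dose differed by 0.96, 1.50, -1.64 and -1.72 (limma adjusted p = 0.0270, 0.0270, 0.0340 and 0.0270) in the same order. The high dose differed by 0.88, 1.28, -1.55 and -1.27 (adjusted p = 0.0188, 0.0307, 0.0285 and 0.0674), and the last did not pass. The intervals leave room for dose differences of up to 1.15 log2 units in these probes. At the low dose 4 of 5 fish were female, against 1 of 7 at the high dose. The sex term of the fit was shared by all groups, so it allowed only for a sex difference that is equal in all of them.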

How the data were processed

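Liver RNA of 38 fish was measured on 1-colour (Cy3) custom Agilent arrays, 1 per fish. Per the file headers, the authors obtained each deposited intensity, the background-subtracted processed signal of a spot, from scans through Feature Extraction 11.5.1.1. The deposited series table holds the same intensity within 0.497%, with column medians from 4.95 to 24.3, so it was not scaled between arrays. The log2 processed signal was taken relative to the 75th percentile of 15207 non-control spots of each array and averaged per probe (10 spots for 50 probes). Of 10502 probes well above background on at least 5 arrays, 10 were left out for outlier flags. All 38 arrays, those of the PBDE fish included, were fitted by group and sex with limma 3.58.1 in R 4.3.3 (empirical Bayes, intensity trend). Tests were two-sided, with Benjamini-Hochberg adjustment over 10492 probes. The PCB value is the mean of both dose coefficients, whatever the number of fish. Neither slide (a difference at 1039 of 10492 probes) nor scan day (818) was a term of this fit.

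Named are the 2 higher and the 2 lower probes of lowest p past the threshold, because the files pair probes with no gene names; fixed gene and marker lists could not be applied. The comparison, lists and rules were chosen with earlier results of these data known. Normexp used the median spot and background signals (offset 50). Alternatives covered normalization, background, filter, sex, slide, scan day, variance prior, controls and single fish. The fit of males alone was not limited to the PCB and seawater males compared, as it also held oil control males. Each fish is a separate animal, so p-values reflect the spread between animals together with that of labelling and hybridisation.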

Additional observations from a re-analysis of the deposited data

Results flagged for a closer look

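High PCB 32 had 6113 probes well above background, and its gap to the nearest of the other 6 high PCB fish was 0.728 of the group's whole range, beyond Dixon's limit. It was the dimmest array, with a 75th percentile of 43.6 intensity units, and the only array of slide 8. Of 24 groups of values examined in this way (4 named probes and 2 array measures in 4 groups), it was the 1 that passed, where chance gives about 1 in 20. Without it, 35 probes passed against seawater controls, 25 higher and 10 lower.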

How the results depend on the processing

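The 4 named probes kept their direction in all 19 fits without 1 fish and in the 15 other settings that changed their estimates. Their choice by p in the same arrays partly builds this in. A further 4 settings left the estimates as they were by construction. The number of probes past the threshold (53, with 35 higher and 18 lower) did not keep its size, and the causes were not tested. Higher and lower calls were 34 and 31 with quantile normalization, 3 and 0 with normexp, and 1 and 0 in males. Without the filter on dim probes, where more than 10492 probes were tested, they were 25 and 8 (33 in all). Among the 5564 probes well above background on all arrays they were 46 and 31. These 2 settings count over other numbers of probes than the reported fit. They were 48 and 33 (81) with slide as a random block, 31 and 42 with slide fixed, 14 and 6 (20) with only the groups compared, 52 and 60 (112) with array weights, and 27 and 9 with no intensity trend. Without seawater control 7 they were 14 and 4 (18), with it counted as an oil control 7 and 2 (9), against oil in place of seawater controls 0 and 0 (limma, 1002 in all at an unadjusted p under 0.05), and against both controls averaged 18 and 24. Scaling by the median of probes well above background on all arrays, an alternative chosen after seeing the data, gave 36 and 22. Without 1 fish at a time, counts ranged from 14 to 102 in all, 8 to 51 higher and 4 to 64 lower. Probes without overlap (10) numbered 3 with normexp and 10 to 21 without 1 fish. Leaving out a fish cannot make separated groups overlap, so the lower end of that range was fixed in advance. In males the probes without overlap numbered 40, but the groups there were smaller (7 PCB, 5 seawater). Smaller groups separate more often by chance, so this count cannot be set against the 10. The test of sex gave 2 probes with normexp and 0 with quantile normalization. Oil against seawater gave 0 in each setting in which it was fitted except for 1 probe without seawater control 24. PCB against oil and high against low dose gave 0 wherever they were fitted. The difference in probes well above background was -149 by means and 329.5 by medians (exact permutation, adjusted p = 0.968 and 0.535). No paired analysis was possible because no replicate number occurs in more than 1 group; slide, which groups shared, was fitted as a block.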

Other observations

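Seawater control 46 and high PCB 41 were the only seawater and PCB fish of slide 5. Without the control 95 probes passed (51 higher and 44 lower), and without the exposed fish 84 passed (47 higher and 37 lower). Seawater control 46 also had the highest level of HT_SCCWRP_15090 (-0.01) and the lowest of HT_SCCWRP_19679 (1.00) among seawater controls. At HT_SCCWRP_8317 (2.76) and HT_SCCWRP_23972 (1.30) it lay inside the range of the other seawater controls. High PCB 41 had the highest level of HT_SCCWRP_19679 (0.72) among PCB fish. It lay inside the range of the other PCB fish at HT_SCCWRP_8317 (3.70), HT_SCCWRP_15090 (0.76) and HT_SCCWRP_23972 (0.55). The part of slide, fish or labelling in these counts and levels was not tested.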
